A study of Mus musculus with 6 samples.

Results

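The genes described here encode the machinery that moves the lytic granules of natural killer (NK) cells to the plasma membrane and fuses them with it. They were chosen by name for that role, with earlier results of these data known. The 10 genes, Unc13d, Rab27a, Stx11, Stxbp2, Lyst, Ap3b1, Lamp1, Vamp7, Vamp8 and Ctsc, each matched 1 of the 37991 gene rows in the count files. RNA was sequenced from splenic NK cells sorted as CD27+ CD11b+, an intermediate stage of NK cell maturation, from mice of the C57BL6 background. The 6 libraries were 3 Rroid-deficient and 3 wildtype, Rroid being a noncoding transcript made at a regulatory element close to Id2. The labels name no treatment, age or sex, and do not say how the deficiency was made or from how many mice the cells came; p-values therefore cover the spread between these libraries only, and that spread may be technical.

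An NK cell kills by releasing perforin and granzymes from lysosome-related granules into the contact with its target. AP-3 and LYST act while the granule is built, the small GTPase RAB27A and its effector MUNC13-4, encoded by Unc13d, dock and prime it, and syntaxin 11, MUNC18-2, encoded by Stxbp2, and the vesicle SNAREs VAMP7 and VAMP8 carry out membrane fusion. In humans, loss of UNC13D, STX11 or STXBP2 causes familial hemophagocytic lymphohistiocytosis, loss of RAB27A Griscelli syndrome, loss of LYST Chediak-Higashi syndrome and loss of AP3B1 a form of Hermansky-Pudlak syndrome, all with impaired killing by lymphocytes. LAMP1 lines the granule membrane and appears on the cell surface as CD107a after release, and cathepsin C, encoded by Ctsc, cuts the propeptide from granzymes.

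Reads assigned to genes ranged from 6146465 to 7363793 in the deficient libraries and from 5823626 to 9216430 in the wildtype libraries. Levels are given as CPM, counts scaled to a common library size by TMM. A gene at 0 could have had up to 3 counts, or 0.322 to 0.489 CPM depending on the library, for counting error alone. The libraries numbered 1 stood apart, with 5.57% (deficient) and 5.63% (wildtype) of the 11724 tested genes at 0, against 0.23% to 2.43% in the other 4. NK cell markers were all detected, with a sum over the 10 genes of 9754 to 10400.4 CPM in deficient and 11340 to 13912 CPM in wildtype libraries. A large part of this sum was Gzma, with 2315, 2726 and 2640 CPM in deficient libraries, against 5496, 3917 and 4090 CPM in wildtype libraries. Klrb1c and Klrk1 were also lower in all deficient libraries, and the libraries of the genotypes overlapped for the other NK cell markers. Other cells that use the same genes left little signal: summed CPM reached at most 0.326 for 5 neutrophil markers, 6.77 for 5 platelet markers and 2.90 for 4 mast cell and basophil markers, with S100a8, Mpo, Pf4, Ppbp and Fcer1a at 0 in all libraries. The sum of 8 T cell markers was 91.7 to 147 CPM in deficient and 17.2 to 19.2 CPM in wildtype libraries. In deficient libraries most of it came from Cd3g (54.8 to 68.2 CPM) and Cd3d (24.1 to 67.1 CPM), with Trac at 0.144, 9.46 and 11.3 CPM. In wildtype libraries Cd3g had 4.62 to 8.34 CPM, Cd3d 4.94 to 8.65 CPM and Trac 0 to 5.05 CPM, and Cd4 had 8.54 CPM in wildtype library 1 and 0 in the other 5 libraries. Cd6 and Cd8a were at 0 in all libraries, Cd3e in all but 1, and Cd5 had at most 4 reads in any library. The sum of 5 monocyte and macrophage markers was 23.7 to 30.4 CPM in deficient and 5.24 to 12.6 CPM in wildtype libraries, with Cd14 at 0, and 4 B cell markers summed to at most 7.64 CPM in deficient and 7.94 CPM in wildtype libraries, with Pax5 at 0. The part of the T cell and macrophage markers in the differences between genotypes was not tested. Id2, the gene next to the element, had 38.9, 66.7 and 81.2 CPM in deficient libraries, against 468, 338 and 341 CPM in wildtype libraries, and passed as lower (edgeR adjusted p = 0.0308).

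Of the 10 granule genes, 9 had enough reads to be tested, and none passed the test over all genes (edgeR's quasi-likelihood test, Benjamini-Hochberg adjusted p of at most 0.05), which called 1 gene as higher and 1 as lower, which is 0.00853% of those tested in each direction and 0.0171% in all. An unadjusted p under 0.05 was found for 2 of the 9, Lyst and Rab27a, and for 5.29% of all tested genes. In 3 of the 9 the libraries of the genotypes did not overlap, Lyst higher and Rab27a and Stx11 lower in all deficient libraries, against 12.4% of all tested genes (6.03% higher and 6.33% lower). With 1 library left out in turn, 3 to 5 of the 9 did not overlap, against 19.8% to 26.4% of the genes tested in those fits. The median log2 fold change over the 9 was -0.13, against 0.024 over all tested genes, with members ranging from -1.26 for Stx11 to 0.88 for Lyst. In bulk RNA, fewer cells that express a gene and less RNA of it per cell cannot be told apart.

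**Figure D1:**
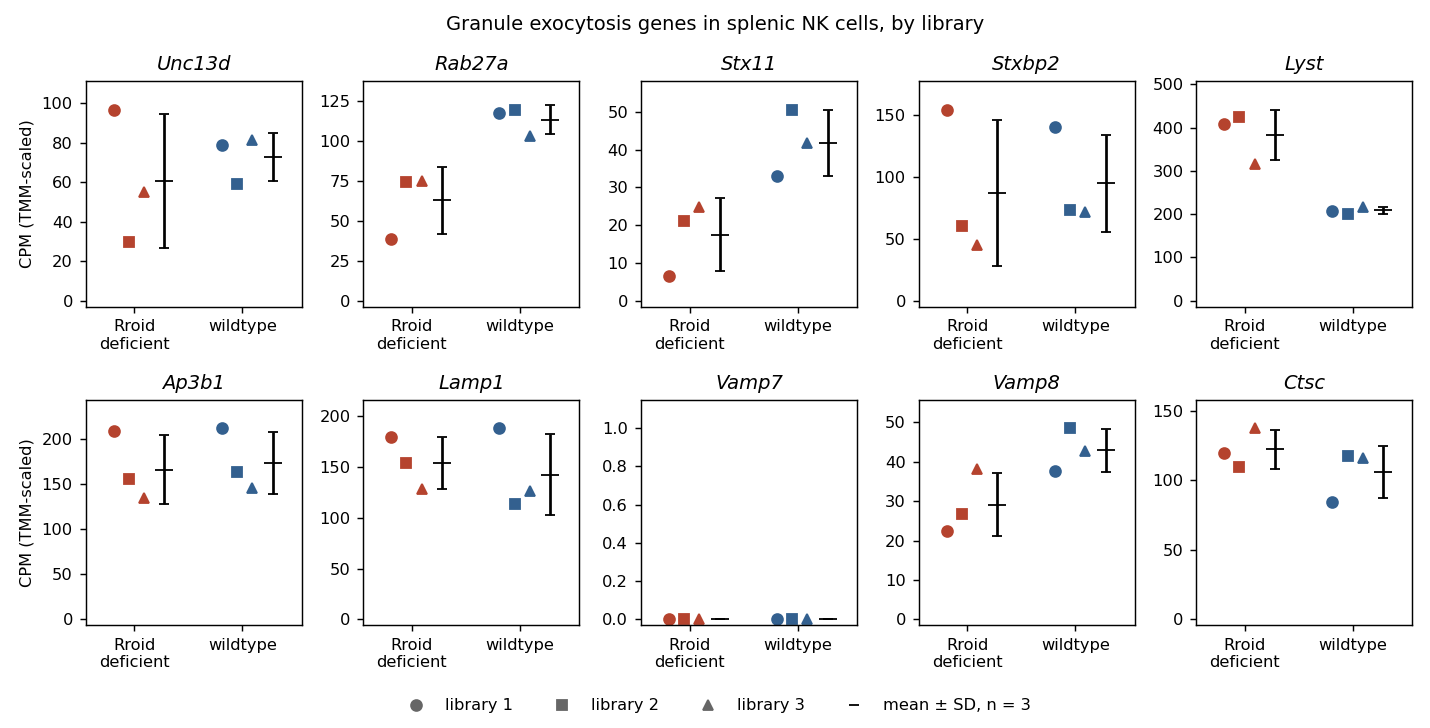
TMM-scaled CPM of the 10 granule exocytosis genes in each library, Rroid-deficient libraries in red on the left of each panel and wildtype libraries in blue on the right, with the mean and SD (n = 3) as black bars. Lyst is higher and Rab27a and Stx11 are lower in all deficient libraries, Stxbp2 is highest in both libraries numbered 1, and Vamp7 is at 0 throughout.

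The genes of granule biogenesis gave different pictures. LYST is a large BEACH-domain protein that limits the size of lysosomes and granules, and NK cells of beige mice, which lack it, hold few giant granules that are poorly released. Lyst had 408, 425 and 317 CPM in deficient libraries, against 208, 201 and 217 CPM in wildtype libraries. The lowest deficient library thus lay well above the highest wildtype library, and the wildtype libraries differed from each other by a coefficient of variation of 3.78%. Its log2 fold change of 0.88 (95% interval 0.45 to 1.31, SE 0.19), a 1.84-fold higher level, had an edgeR adjusted p of 0.569. Lyst was the only one of the 9 genes that any alternative test called: DESeq2 gave it an adjusted p of 0.0167 when run on the filtered genes, where 0.569% of the 11433 that received an adjusted p passed, and 0.0199 without that filter, where 0.715% passed. Without both libraries numbered 1 its log2 fold change was 0.82 (95% interval 0.36 to 1.28).

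Ap3b1 encodes the large beta subunit of AP-3, the adaptor complex that sorts proteins from endosomes to lysosome-related granules. It had 208, 155 and 134 CPM in deficient libraries, against 212, 163 and 145 CPM in wildtype libraries. The libraries overlapped almost completely, with those numbered 1 the highest of each genotype. Its log2 fold change was -0.06 (95% interval -0.63 to 0.50, SE 0.25, adjusted p = 0.982 in edgeR), an interval that leaves room for a level between 0.647 and 1.42 times that of wildtype.

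Docking and priming rest on RAB27A and MUNC13-4, which bind each other on the granule. Rab27a had 38.9, 74.4 and 75.4 CPM in deficient libraries, against 118, 120 and 103 CPM in wildtype libraries. Each deficient library lay below each wildtype library, with deficient library 1 lowest by a wide margin. The difference on the log2 scale was -0.85 (95% interval -1.58 to -0.13, SE 0.32), a 1.81-fold lower level, with an edgeR adjusted p of 0.914. Without both libraries numbered 1 it was -0.58 (95% interval -1.14 to -0.02).

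Unc13d, whose product MUNC13-4 primes docked granules for fusion, had 96.7, 29.9 and 55.2 CPM in deficient libraries, against 78.8, 59.1 and 81.2 CPM in wildtype libraries. The deficient libraries held both the highest and the lowest value of the 6, so the spread within that genotype exceeded the difference between means, 60.6 ± 33.8 CPM in deficient and 73.0 ± 12.1 CPM in wildtype libraries (SD, n = 3 each). On the log2 scale the difference was -0.27 (95% interval -1.22 to 0.69, SE 0.43, adjusted p = 0.947 in edgeR). Without both libraries numbered 1 it was -0.72 (95% interval -1.63 to 0.19).

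Of the fusion genes, Stx11 and its partner Stxbp2 come first, and whether their changes differed was not tested. Syntaxin 11 is an atypical SNARE without a transmembrane segment that works at the plasma membrane, and MUNC18-2 binds it and stabilises it. Stx11 had 6.49, 21.2 and 24.8 CPM in deficient libraries, against 33.1, 50.6 and 41.7 CPM in wildtype libraries. The genotypes did not overlap, the deficient libraries being lower, and deficient library 1, with 45 reads, was again the lowest. The fitted log2 fold change was -1.26 (95% interval -2.53 to 0.01, SE 0.57), a 2.39-fold lower level that did not pass (edgeR unadjusted p = 0.0523, adjusted p = 0.914). Without both libraries numbered 1 the log2 fold change was -1.01 (95% interval -1.89 to -0.13).

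Stxbp2 had 155, 60.9 and 45.4 CPM in deficient libraries, against 141, 73.0 and 71.9 CPM in wildtype libraries. Both libraries numbered 1 were above the other 4, and among those 4 both deficient libraries were below both wildtype libraries. The fit gave a log2 fold change of -0.13 (95% interval -1.19 to 0.93, SE 0.47, adjusted p = 0.981 in edgeR). Without both libraries numbered 1 it was -0.45 (95% interval -1.15 to 0.24), and the part of those libraries' many genes at 0 in these values was not tested.

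Vamp8 encodes a vesicle SNARE of endosomes and secretory granules. It had 22.5, 26.8 and 38.2 CPM in deficient libraries, against 37.6, 48.5 and 42.6 CPM in wildtype libraries. Deficient library 3 lay just above wildtype library 1, so the genotypes overlapped by that pair alone. The fit gave a log2 fold change of -0.56 (95% interval -1.50 to 0.38, SE 0.42, adjusted p = 0.925 in edgeR). Vamp7, which encodes the longin-domain vesicle SNARE, had a count of 0 in all 6 libraries. The annotation used here, of a later build than the counts, places Vamp7 on an unplaced scaffold. All 19 genes of the files on such scaffolds were at 0 in all libraries. The place of Vamp7 in the build of the counts was not checked, so its 0 is not read as absence of expression.

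**Figure D2:**
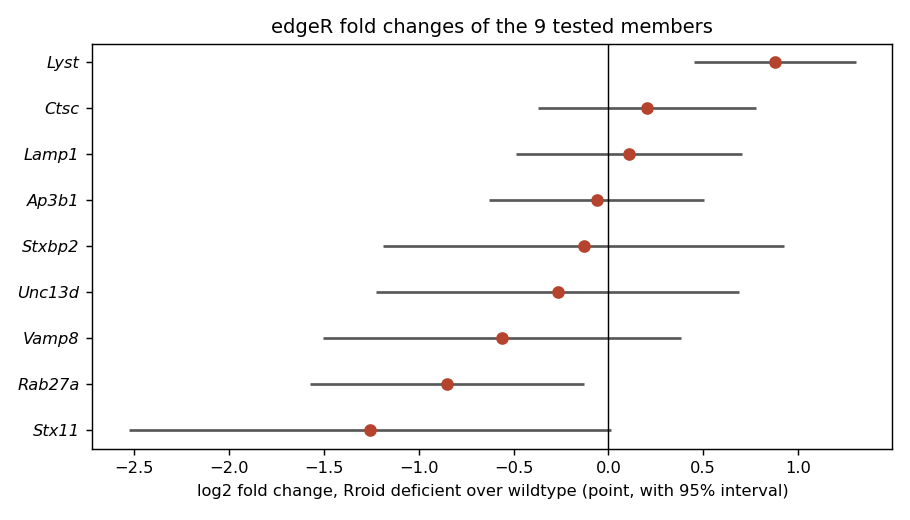
Log2 fold change of Rroid-deficient over wildtype libraries for the 9 tested genes (points) with 95% intervals from the edgeR fit (lines), ordered by value. The intervals of Lyst and Rab27a lie on one side of 0, that of Stx11 just crosses it, and no gene passed after adjustment over 11724 genes.

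For the membrane and cargo-processing genes of the granule the libraries of both genotypes overlapped. Lamp1 had 180, 154 and 128 CPM in deficient libraries, against 188, 114 and 126 CPM in wildtype libraries. Its highest and its lowest value were both in wildtype libraries, at a log2 fold change of 0.11 (95% interval -0.49 to 0.70, SE 0.27, adjusted p = 0.968 in edgeR). Exons of Lamp1 overlap those of Grtp1 on the opposite strand, which had 161 to 175 reads in deficient and 147 to 436 in wildtype libraries, and without strand the division of reads in the overlap is uncertain. Ctsc had 119, 110 and 137 CPM in deficient libraries, against 84.5, 117 and 116 CPM in wildtype libraries. Wildtype library 1 was its lowest, the other 5 lay close together, and the log2 fold change was 0.21 (95% interval -0.37 to 0.78, SE 0.26, adjusted p = 0.938 in edgeR).

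Ratios of reads within a library do not depend on how libraries are scaled, and 4 were computed. There were 9.54, 17.5 and 23.8 Rab27a reads per 100 Lyst reads in deficient libraries, against 56.4, 59.6 and 47.6 in wildtype libraries, without overlap. This pair was chosen after its values were seen, so the ratio is a description. For the binding partners RAB27A and MUNC13-4, there were 40.2, 249 and 137 Rab27a reads per 100 Unc13d reads in deficient libraries, against 149, 203 and 127 in wildtype libraries. That ratio had its highest and its lowest value in deficient libraries, and the genotypes overlapped. For syntaxin 11 and MUNC18-2, there were 4.20, 34.9 and 54.6 Stx11 reads per 100 Stxbp2 reads in deficient libraries, against 23.6, 69.3 and 58.0 in wildtype libraries, with the library numbered 1 lowest in each genotype. For the SNAREs VAMP8 and syntaxin 11, there were 347, 126 and 154 Vamp8 reads per 100 Stx11 reads in deficient libraries, against 114, 96.0 and 102 in wildtype libraries. Stx11 was thus scarcer relative to Vamp8 in all 3 deficient libraries, of which library 1 had 45 Stx11 reads. Stx11 by itself did not overlap between genotypes, so this ratio is no separate result.

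**Figure D3:**
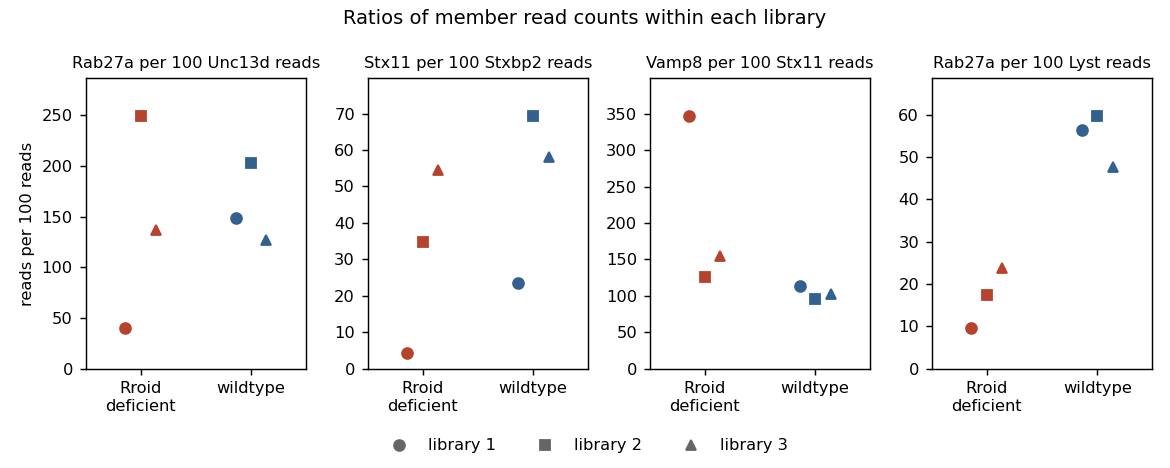
Reads of one granule gene per 100 reads of another within each library, for 4 pairs, Rroid-deficient libraries in red on the left and wildtype libraries in blue on the right, with the symbol giving the library number. Rab27a per 100 Lyst reads is 9.54 to 23.8 in deficient and 47.6 to 59.6 in wildtype libraries, while Rab27a per 100 Unc13d reads overlaps between genotypes.

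The promoters of the 3 genes whose libraries did not overlap are shown because ID2, whose gene was far lower in the deficient libraries, acts by holding back E proteins, factors that bind the E-box letters CANNTG. Sequences are from RefSeq's annotation of GRCm38.p6, a later build than that of the counts, and cover the 250 bases before each annotated start on the gene's strand, with CANNTG in capitals. Rab27a has 2 annotated starts, and the counts do not tell which was used.
Lyst, chr13:13590159-13590408, + strand: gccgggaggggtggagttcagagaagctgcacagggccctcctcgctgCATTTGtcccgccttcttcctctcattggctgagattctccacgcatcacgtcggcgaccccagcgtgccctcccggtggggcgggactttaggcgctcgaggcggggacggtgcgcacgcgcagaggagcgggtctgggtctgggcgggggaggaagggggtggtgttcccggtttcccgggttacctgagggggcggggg
Rab27a, chr9:73044560-73044809, + strand: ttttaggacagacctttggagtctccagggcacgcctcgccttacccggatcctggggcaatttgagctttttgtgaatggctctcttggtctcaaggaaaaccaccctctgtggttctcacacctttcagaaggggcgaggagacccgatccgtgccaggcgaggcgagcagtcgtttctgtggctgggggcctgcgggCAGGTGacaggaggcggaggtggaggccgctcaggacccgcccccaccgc
Rab27a, chr9:73063898-73064147, + strand: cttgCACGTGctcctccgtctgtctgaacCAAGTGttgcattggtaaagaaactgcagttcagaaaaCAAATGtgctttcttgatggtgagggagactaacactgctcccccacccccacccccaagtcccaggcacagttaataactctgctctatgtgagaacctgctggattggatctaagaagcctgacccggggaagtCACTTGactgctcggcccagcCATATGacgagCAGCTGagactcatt
Stx11, chr10:12964260-12964509, - strand: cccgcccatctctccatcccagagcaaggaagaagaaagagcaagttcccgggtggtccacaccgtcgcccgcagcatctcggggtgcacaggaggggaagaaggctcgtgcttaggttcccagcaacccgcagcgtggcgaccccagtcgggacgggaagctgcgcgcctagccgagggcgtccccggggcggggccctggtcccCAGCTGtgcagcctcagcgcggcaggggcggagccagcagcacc
The Lyst promoter held CANNTG at 1 place, as CATTTG, and the Stx11 promoter at 1 place, as CAGCTG. The upstream Rab27a promoter held it at 1 place, as CAGGTG, and the downstream one at 6. Among 32851 mouse promoters of the same length, 66.2% held CANNTG (the letters read the same on both strands), 13.0% held CAGCTG and 17.2% held CAGGTG on either strand, both included in CANNTG. A match is a run of letters and not a shown binding site. Of the 8 members with a promoter entry, Ap3b1, Ctsc and Vamp8 held no CANNTG in these windows. Stxbp2 and Lamp1, whose libraries also overlapped between genotypes, held it at 4 places each, more than Lyst or Stx11.

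The Lamp1 promoter is shown for a different feature. It held the letters CACGTG, the core of sites bound by TFEB and related factors that drive lysosomal genes, and a form of CANNTG, at 4 places near its end.
Lamp1, chr8:13158911-13159160, + strand: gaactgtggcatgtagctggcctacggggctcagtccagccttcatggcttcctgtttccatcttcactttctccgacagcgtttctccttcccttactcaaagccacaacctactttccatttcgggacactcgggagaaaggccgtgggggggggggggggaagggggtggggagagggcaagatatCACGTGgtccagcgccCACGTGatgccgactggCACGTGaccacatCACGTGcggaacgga
CACGTG on either strand was found in 6.02% of the 32851 promoters, and at 4 or more places in 7 of them, 0.0213%. The limit of 4 equals the count in the Lamp1 promoter, which was shown for that count, so this share is a description. Among the other members it was found at 1 place each in the Stxbp2 promoter and the downstream Rab27a promoter. The Lamp1 levels of both genotypes overlapped, as given above.

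To compare levels between genes, CPM were divided by exonic length in kilobases (RPKM). In wildtype libraries the order was Lamp1 (53.4 ± 15.0 RPKM, SD, n = 3), Ap3b1 (38.0 ± 7.59), Rab27a (29.3 ± 2.33), Stxbp2 (22.9 ± 9.45), Vamp8 (18.6 ± 2.37), Ctsc (18.2 ± 3.21), Unc13d (15.6 ± 2.59), Lyst (12.0 ± 0.451) and Stx11 (9.93 ± 2.08). Neighbours in this order lay within 1 SD of each other in RPKM except Lamp1 and Ap3b1, Ap3b1 and Rab27a, and Unc13d and Lyst. In deficient libraries Lyst stood at 22.0 ± 3.33 RPKM and Rab27a at 16.2 ± 5.35 RPKM, reversing their wildtype order, and Stx11 stayed lowest at 4.15 ± 2.30 RPKM. Over all 6 libraries the members' RPKM ranked from the 53.7th percentile of tested genes for Stx11 to the 94.8th for Lamp1. The order depends on the length used: per kilobase of coding sequence Rab27a (133), Lamp1 (122) and Vamp8 (119) were the 3 highest over all libraries and Unc13d (19.7) the lowest.

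Most of these proteins belong to families, and the libraries showed which relatives NK cells transcribed. In the MUNC13 family Unc13d had 12.9 ± 7.21 RPKM in deficient and 15.6 ± 2.59 RPKM in wildtype libraries, and Baiap3, a related gene, was close to it at 12.8 ± 4.58 RPKM in deficient and 13.3 ± 2.37 RPKM in wildtype libraries. Unc13a, known from neurons, had 1.44 ± 0.358 RPKM in deficient and 2.54 ± 0.677 RPKM in wildtype libraries, and Unc13b and Unc13c had at most 1 read in any library. Exons of Unc13a overlap those of Colgalt1, and exons of Baiap3 those of Tsr3, on the opposite strand, so part of these levels is uncertain. Rab27a made up 92.6 ± 7.27% of the summed RPKM of Rab27a and Rab27b in deficient and 93.7 ± 2.33% in wildtype libraries. The difference between these shares was smaller than their spread.

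Syntaxin 11 was a minor part of the 8 syntaxins compared, with 4.89 ± 2.24% of their summed RPKM in deficient and 12.5 ± 3.05% in wildtype libraries. Stx4a, a plasma membrane syntaxin, led with 43.3 ± 10.6 RPKM in deficient and 41.9 ± 17.7 RPKM in wildtype libraries. Syntaxin 3, another partner of MUNC18-2, had a pattern opposite to that of syntaxin 11: Stx3 had 53.6, 39.97 and 32.1 CPM in deficient libraries, against 0.15, 12.99 and 22.7 CPM in wildtype libraries. Its genotypes did not overlap, wildtype library 1 held a single read, and it did not pass (log2 fold change 1.81, adjusted p = 0.925 in edgeR, SE 1.03). The endosomal syntaxins Stx7 and Stx12 had 14.7 ± 2.02 and 7.31 ± 2.20 RPKM in deficient and 9.74 ± 2.41 and 11.3 ± 5.56 RPKM in wildtype libraries. Stx8 had 3.39 ± 2.12 RPKM in deficient and 5.01 ± 0.631 RPKM in wildtype libraries, Stx2 had 0.635 ± 0.560 RPKM in deficient and 1.03 ± 0.979 RPKM in wildtype libraries, and Stx1a was at 0 in all libraries.

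Stxbp2 made up 54.6 ± 9.34% of the summed RPKM of Stxbp2 and Stxbp3 in deficient and 68.2 ± 1.59% in wildtype libraries. Stxbp3, the ubiquitous relative, stood at 15.5 ± 4.89 RPKM in deficient and 10.8 ± 5.05 RPKM in wildtype libraries. Among vesicle SNAREs, Vamp8 had 12.6 ± 3.51 RPKM in deficient and 18.6 ± 2.37 RPKM in wildtype libraries. Vamp2 and Vamp3, both able to serve in lymphocyte exocytosis, had 21.8 ± 10.9 and 20.1 ± 6.33 RPKM in deficient and 15.6 ± 1.67 and 19.9 ± 8.32 RPKM in wildtype libraries. Vamp4, of the trans-Golgi network, had 12.8 ± 2.93 RPKM in deficient and 8.14 ± 2.77 RPKM in wildtype libraries, and Vamp1 had 3.14 ± 0.510 RPKM in deficient and 2.62 ± 0.688 RPKM in wildtype libraries. Vamp5 had 0.964 ± 0.747 RPKM in deficient and 0.813 ± 0.783 RPKM in wildtype libraries.

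Among the BEACH-domain genes, Lyst made up 22.5 ± 0.361% of the family's summed RPKM in deficient and 14.6 ± 0.958% in wildtype libraries. Nbeal2, needed for platelet alpha granules, led the family in both genotypes, with 36.6 ± 6.60 RPKM in deficient and 36.9 ± 5.94 RPKM in wildtype libraries. Nsmaf had 27.7 ± 5.37 RPKM in deficient and 25.0 ± 4.81 RPKM in wildtype libraries, Lrba, which protects CTLA4 from lysosomal degradation, had 8.34 ± 2.26 RPKM in deficient and 5.58 ± 1.52 RPKM in wildtype libraries, and Nbeal1 had 2.75 ± 1.12 RPKM in deficient and 2.52 ± 0.0691 RPKM in wildtype libraries. Nbea averaged 1.08 CPM over all libraries, and Wdfy3 and Wdfy4 had at most 4 reads in any library. Of the summed RPKM of Ap3b1 and its neuronal relative Ap3b2, Ap3b1 made up 100% in deficient and 99.8 ± 0.356% in wildtype libraries.

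Lamp1 led the LAMP family, ahead of Lamp2 at 9.88 ± 2.33 RPKM in deficient and 7.91 ± 0.675 RPKM in wildtype libraries, and of Lamp3 at 0.852 ± 0.275 RPKM in deficient and 0.731 ± 0.122 RPKM in wildtype libraries. Cd68, the LAMP family member usually linked to macrophages, had 30.4, 21.0 and 19.6 CPM in deficient libraries, against 2.25, 11.3 and 1.10 CPM in wildtype libraries. Per length Cd68 had 18.9 ± 4.66 RPKM in deficient libraries, above Lamp2, and 3.88 ± 4.43 RPKM in wildtype libraries. Its genotypes did not overlap, but it did not pass (log2 fold change 2.27, adjusted p = 0.914 in edgeR, SE 0.90). The macrophage markers Adgre1 and Cd14 had at most 1 read in any library, and Csf1r had 0 to 2.77 CPM in deficient and 1.29 to 4.09 CPM in wildtype libraries. Lyz2, another marker of that list, had 7.61 CPM in deficient library 3 and 1.89 CPM in wildtype library 3, and was at 0 in the other 4.

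**Figure D4:**
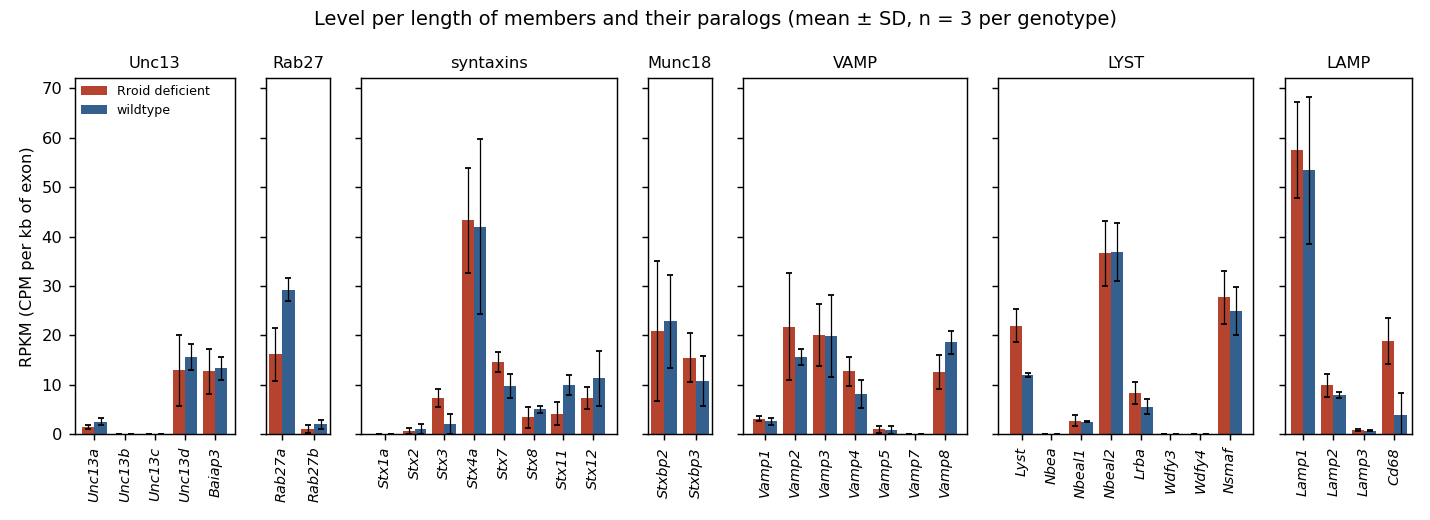
Level per length (RPKM, mean ± SD, n = 3 per genotype) of the granule genes and their family members, Rroid-deficient in red on the left of each pair and wildtype in blue on the right. Rab27a, Stxbp2 and Lamp1 have the highest mean of their families in both genotypes, and Stx4a and Nbeal2 have that of the Stx11 and Lyst families. In deficient libraries Stxbp2 (20.9 ± 14.2 RPKM) and Stxbp3 (15.5 ± 4.89 RPKM) overlap within their SD.

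A wider list of 93 genes of granule transport and fusion, chosen by role with earlier results of these data known, had 82 tested members. None passed (edgeR adjusted p of 0.914 or more), and DESeq2 called none in either run. In edgeR 3 of the 82 had an unadjusted p under 0.05, against 5.29% of all tested genes. In 11 of the 82 the libraries of the genotypes did not overlap, 7 higher and 4 lower, against the 12.4% of all tested genes given above. The median log2 fold change was 0.023, against 0.024 over all tested genes.

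RAB27 on the granule is bound by effectors of the synaptotagmin-like family, which tether the granule to the plasma membrane. Sytl3 had 19.6 ± 5.35 RPKM in deficient and 25.4 ± 0.597 RPKM in wildtype libraries, and Sytl2 had 16.4 ± 4.72 RPKM in deficient and 15.1 ± 3.001 RPKM in wildtype libraries. Sytl4, Sytl5, Exph5, Myrip and Mlph were at 0 in all libraries. Sytl3 had 118, 111 and 68.3 CPM in deficient libraries, against 131, 130 and 125 CPM in wildtype libraries. The genotypes did not overlap, at a log2 fold change of -0.37 (adjusted p = 0.925 in edgeR, SE 0.28). Exons of Sytl3 overlap those of Ezr on the opposite strand, which had 1535 to 1723 reads in deficient and 1576 to 3106 in wildtype libraries. Without strand, the division of reads between Sytl3 and Ezr is uncertain. Rab27b, the closest relative of Rab27a, had 11.2 ± 7.75 CPM in deficient and 21.2 ± 9.16 CPM in wildtype libraries, and Rab3d, a GTPase of secretory granules, had 20.3 ± 7.77 CPM in deficient and 14.9 ± 5.96 CPM in wildtype libraries.

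Of the 18 further SNARE and SM genes, 4 were higher in all deficient libraries, Stx3, Stx7, Vamp4 and Napa, none was lower in all, and none passed; over all tested genes 6.03% were higher and 6.33% lower in this way. Napa, whose product recruits NSF to take used SNARE complexes apart, had 57.4, 33.9 and 30.4 CPM in deficient libraries, against 24.1, 19.3 and 23.1 CPM in wildtype libraries (log2 fold change 0.87, adjusted p = 0.925 in edgeR, SE 0.46). Vti1a, a SNARE of the route between endosomes and Golgi, had 28.9 ± 20.6 CPM in deficient and 55.4 ± 9.50 CPM in wildtype libraries. The set as a whole had a median log2 fold change of 0.08, with 13 values above 0 and 5 below, against 6049 above and 5675 below over all tested genes.

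In the AP-3, BLOC and HPS group, where 20 of 22 genes were tested, 2 were higher and 2 lower in all deficient libraries, against 6.03% and 6.33% of all tested genes, and 10 fold changes lay on each side of 0. Hps1 and Hps4, whose products form BLOC-3, differed in direction. Hps1 had 41.5 ± 35.9 CPM in deficient and 17.2 ± 1.69 CPM in wildtype libraries, with 82.2 CPM in deficient library 1. Hps4 had 0.432, 3.43 and 5.25 CPM in deficient libraries, against 18.6, 5.91 and 5.98 CPM in wildtype libraries, without overlap but with 3 reads in deficient library 1 (log2 fold change -1.73, SE 1.09). Hps3, a subunit of BLOC-2, had 65.6 ± 28.3 CPM in deficient and 41.9 ± 3.54 CPM in wildtype libraries. Exons of Hps1, Hps3 and Hps4 overlap those of genes on the opposite strand that had at most 83 reads in any library.

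Of the granule membrane and cargo genes, none of the 12 tested had genotypes that did not overlap, against 12.4% of all tested genes. Nkg7, a granule membrane protein that promotes degranulation, had 1197, 1241 and 1400.2 CPM in deficient libraries, against 1629, 1712 and 1329 CPM in wildtype libraries (log2 fold change -0.28, adjusted p = 0.925 in edgeR, SE 0.15). Only wildtype library 3 fell within the range of the deficient libraries. The lysosomal proteases Ctsb and Ctsd had 151 ± 72.3 and 595 ± 45.0 CPM in deficient and 94.0 ± 26.7 and 769 ± 249 CPM in wildtype libraries, and exons of Ctsb overlap those of Fdft1. Cathepsin W, a protease of cytotoxic lymphocytes, was high at 139 ± 10.02 RPKM in deficient and 160 ± 18.1 RPKM in wildtype libraries. Serglycin, the proteoglycan that packs granzymes, stood at 83.6 ± 21.3 RPKM in deficient and 83.8 ± 12.8 RPKM in wildtype libraries for its gene Srgn. Cd63, which encodes a tetraspanin of granule membranes, had 0 reads in 5 of the 6 libraries and 39 in wildtype library 1.

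All 24 genes of transport, actin and calcium entry were tested. The 3 unadjusted edgeR p-values under 0.05 of the wider list lay here, against 5.29% of all tested genes. Iqgap1, an actin scaffold used when granules gather at the synapse, had 586, 562 and 581 CPM in deficient libraries, against 898, 719 and 686 CPM in wildtype libraries. These did not overlap, with a log2 fold change of -0.41 (adjusted p = 0.914 in edgeR, SE 0.16). Stim2, a sensor of calcium in the endoplasmic reticulum, had 103 ± 33.3 CPM in deficient and 53.9 ± 24.7 CPM in wildtype libraries (log2 fold change 0.94, SE 0.41). Itpr3, a calcium channel gated by inositol trisphosphate, had 75.7 ± 13.7 CPM in deficient and 147 ± 95.2 CPM in wildtype libraries, where library 1 alone had 256 CPM, and its exons overlap those of Itpr3os.

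**Figure D5:**
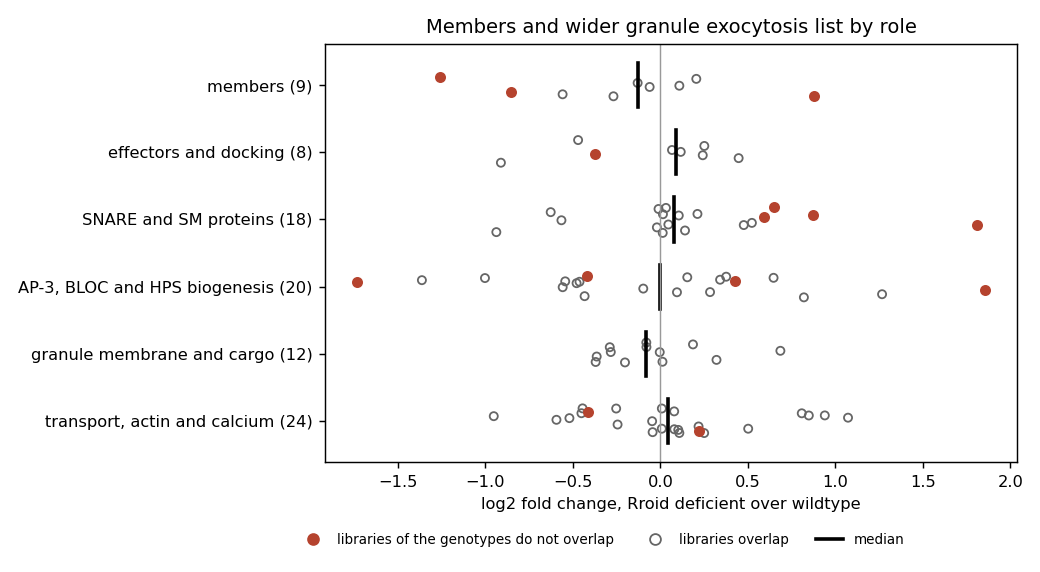
Log2 fold change of Rroid-deficient over wildtype libraries for the tested members and for the tested genes of the wider list by role, with the number tested in parentheses, filled red where the libraries of the genotypes do not overlap and a black line at the median. Medians lie between -0.13 and 0.09, and Stx11, Rab27a and Lyst are the 3 filled points among the members.

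The precision set what could be seen. Log2 fold changes had a median SE of 0.25 over tested genes at 100 CPM or more and of 0.48 from 20 to 100 CPM, and the members' SE ran from 0.19 for Lyst to 0.57 for Stx11. For Unc13d and Stxbp2 the 95% intervals reached from 0.429 and 0.439 to 1.61 and 1.90 times the wildtype level, so these libraries do not show that they were equal.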

How the data were processed

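Per the labels' protocols, RNA was amplified with a NuGEN Ovation kit, which does not mark strand, before KAPA library preparation and single-read sequencing. Per the submitters' processing notes, the builds were NCBIM37 and mm9 and the tools DESeq2, HTSeq 0.6.1, TopHat2 2.1.0 and Trimmomatic 0.33. Their settings, and whether strand was used in counting, were not given in the sources used here. Files deposited by the authors hold raw counts per Ensembl gene, 1 file per library; 5 closing rows that name no gene held 80.0% to 84.4% of reads and were left out.

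Symbols, exonic lengths, exon overlaps and scaffolds came from GENCODE M21 (GRCm38), a later build than that of the counts, which named 32938 of 37991 genes; no coordinates are printed from it. Genotypes were compared with edgeR 4.0.16 (R 4.3.3): TMM, filterByExpr, a quasi-likelihood fit without a block, and Benjamini-Hochberg adjustment over 11724 genes. CPM use TMM-scaled library sizes, and SE were derived from each fold change and F statistic. Every pair of libraries differed beyond sampling noise (the smallest chi-square per degree of freedom was 19.2, between wildtype library 3 and deficient library 3). This value was 22.1 to 64.4 for pairs within a genotype and 19.2 to 96.1 for pairs between genotypes, so the ranges overlapped. Beside the overlaps named with their values, exons of Csf1r, Ctsw, Lrba and Nsmaf overlap those of other counted genes. Alternatives used DESeq2 1.42.0, limma 3.58.1, other scalings and filters, left-out libraries and the replicate number as a block; DESeq2 on the filtered genes was added after seeing the data.

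The members and lists were chosen with earlier results of these data known, and a few genes of the lists are not reported here. Named are all members, the 3 genes of smallest p per role of the wider list, the paralogs with a mean of at least 1 CPM, and Id2; Sytl2, Ctsw, Srgn, Cd63, Stx7, Vamp4, paralogs with a lower mean (Unc13b, Unc13c, Wdfy3, Wdfy4 and Ap3b2), the genes at 0, markers and overlapping genes were named after their values were seen. Figures were drawn with matplotlib 3.10.9.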

Additional observations from a re-analysis of the deposited data

How the results depend on the processing

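Lyst stayed higher, and Rab27a, Stx11 and Vamp8 lower, under all 16 alternatives tried, at log2 fold changes of 0.79 to 0.99, -1.01 to -0.58, -1.60 to -0.87 and -0.81 to -0.41. Ctsc stayed above 0 as well. As the libraries of Lyst, Rab27a and Stx11 did not overlap between genotypes, leaving libraries out could not reverse their direction, and its constancy is no further support. With 1 library left out, log2 fold changes of Stxbp2, Ap3b1, Unc13d and Lamp1 crossed 0. Stxbp2 ran from -0.8457 to 0.2516, above 0 without wildtype library 1, deficient library 2 (0.0652) or deficient library 3 (0.1778). Ap3b1 ran from -0.2642 to 0.0973, above 0 without wildtype library 1 or deficient library 3 (0.0687). Unc13d ran from -0.7816 to 0.0524, above 0 without deficient library 2. Lamp1 ran from -0.0326 to 0.3481, below 0 without deficient library 1 (-0.0231) or wildtype library 2.

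Members called numbered 0 except with DESeq2 (1, Lyst, with or without filterByExpr); no alternative called a gene of the wider list. Genes called over the table were 2 in the edgeR fit, against 88 with DESeq2, 65 with DESeq2 on the filtered genes, 1 with limma-voom, 8 with sample quality weights and 98 without a filter (33 with a library at 0). They numbered 0 without any 1 library, without both libraries numbered 1, and with the replicate block. Members with no overlap numbered 3 to 5 with 1 library left out (5 without deficient library 1 or wildtype library 1, where 21.7% and 21.9% of tested genes did so) and 7 without both libraries numbered 1, where 37.6% of 12138 tested genes did so. The members' median log2 fold change ran from -0.41 to 0.07 with 1 library left out. The cause was not tested in these cases.

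Whether equal replicate numbers mark paired libraries could not be decided. Deviations of same-numbered libraries from their genotype means correlated at 3e-04, -0.0165 and 0.02, against -0.0293 to 0.0251 for unequal numbers. A correlation over all genes can miss a trait shared by some of them. Both libraries numbered 1 had many tested genes at 0 (5.57% in deficient and 5.63% in wildtype). With the replicate block, 0 genes and 0 members were called and the log2 fold changes were 0.87 for Lyst, -0.91 for Rab27a and -1.44 for Stx11.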
